A study of Mus musculus with 11 samples.

Results

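Gata4, Mlana, Lao1, Fam150b and Plekhd1 were read in mammary tumor cell lines that keep Cpt1a and were at or near 0 reads in lines that lack it. They are 5 of the 4461 genes listed in the deposited table, and they were chosen for these near-absent reads, so the difference between the genotypes is given below as a description, with no test. The table itself lists genes that passed the authors' comparison of the same libraries, a further selection on the same contrast. All groups came from female FVB/N mice of the NIC model, in which the MMTV promoter drives activated ErbB2 and Cre recombinase from 1 transcript in mammary epithelium, and tumors were excised 8 weeks after palpation, dissociated and cultured without any treatment. The 4 NIC/Cpt1a L/L lines (KO_1922, KO_1925, KO_2768 and KO_4258) carried conditional Cpt1a alleles that Cre removes, and the 2 NIC/Cpt1a +/+ lines (WT_5257 and WT_8905) carried none. Each line is 1 tumor-derived culture with 2 libraries, except KO_2768, of which 1 library was used here, giving 11 libraries. The genotypes are written L/L and +/+ from here on. The sample titles word the allele status the other way round, and the genotype field and the line names were followed. Cpt1a itself was not analysed here, so the genotypes were not checked on its reads.

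The 5 genes belong to different tissues and pathways. Gata4 encodes a zinc finger transcription factor of the heart, gut endoderm and gonad that binds the letters GATA. Mlana encodes melan-A, a melanosome protein used as a melanocyte marker. Lao1 encodes an L-amino acid oxidase that is secreted into mouse milk and releases hydrogen peroxide. Fam150b, now named Alkal2, encodes a secreted ligand of the receptor tyrosine kinases Alk and Ltk. Plekhd1 encodes a protein with a pleckstrin homology domain and a coiled coil whose role is little known.

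The genes lie on 4 chromosomes of mm10. Gata4 (ENSMUSG00000021944) spans 63198922 to 63271692 on the minus strand of chromosome 14. Mlana (ENSMUSG00000024806) spans 29697921 to 29708448 on the plus strand of chromosome 19, and Lao1 (ENSMUSG00000024903) spans 118961578 to 118968912 on the plus strand of chromosome 4. Fam150b (ENSMUSG00000054204) and Plekhd1 (ENSMUSG00000066438) share chromosome 12, on its plus strand, at 30884322 to 30893854 and at 80692591 to 80724214.

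RefSeq promoters of 300 bases, 250 before the start site and 50 from it, were at hand for 3 of the 5 genes in build GRCm38.p6 (Fam150b under its symbol Alkal2), and are shown because the genes were silent in the same lines and because GATAA, in capitals, is the motif that GATA factors bind. Gata4 and Mlana have no entry in the table used. The windows, read 5′ to 3′ on the plus strand, were chr4:118961717-118962016 for Lao1, chr12:30884074-30884373 for Fam150b and chr12:80692351-80692650 for Plekhd1.
Lao1: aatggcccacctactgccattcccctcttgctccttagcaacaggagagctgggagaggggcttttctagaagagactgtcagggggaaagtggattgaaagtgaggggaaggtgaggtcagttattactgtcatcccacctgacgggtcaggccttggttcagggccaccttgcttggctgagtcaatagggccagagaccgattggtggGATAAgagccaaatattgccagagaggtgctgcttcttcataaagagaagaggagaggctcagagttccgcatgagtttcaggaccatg
Fam150b: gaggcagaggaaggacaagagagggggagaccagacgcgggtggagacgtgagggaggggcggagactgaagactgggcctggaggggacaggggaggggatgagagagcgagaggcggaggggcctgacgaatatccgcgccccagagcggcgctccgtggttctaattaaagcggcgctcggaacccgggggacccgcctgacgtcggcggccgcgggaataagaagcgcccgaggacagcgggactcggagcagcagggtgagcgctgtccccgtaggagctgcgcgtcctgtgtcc
Plekhd1: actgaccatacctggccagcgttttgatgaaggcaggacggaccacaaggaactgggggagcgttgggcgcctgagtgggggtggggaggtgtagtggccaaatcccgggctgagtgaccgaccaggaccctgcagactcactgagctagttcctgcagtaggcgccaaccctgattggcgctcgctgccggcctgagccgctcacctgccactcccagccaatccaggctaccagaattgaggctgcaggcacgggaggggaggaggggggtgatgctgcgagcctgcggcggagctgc
The Lao1 window lies inside the span that the table gives for the gene. GATAA, searched on both strands, occurred 1 time in the Lao1 window, with its first base at -39 from the start site, and was not found in the windows of Fam150b and Plekhd1. The shorter letters GATA were not searched, so the windows may still hold them. It was present in 25.4% of all 32851 promoters of this length. The letters TTCNNNGAA, to which Stat factors such as Stat5 bind, were in none of the 3 windows and in 8.30% of all promoters. The windows differed in base composition, with 3 CpG dinucleotides and 52.7% G or C for Lao1, 30 and 68.3% for Fam150b, and 15 and 65.0% for Plekhd1, against a median of 7 CpG dinucleotides over all promoters. Fewer CpG dinucleotides than in the Lao1 window were found in 23.3% of promoters, whereas 88.3% had fewer than Fam150b and 65.4% fewer than Plekhd1.

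The libraries differed in depth and 2 of the lines stood apart. Totals were 18247312 to 25386785 reads over 7 L/L libraries and 15199378 to 17372643 in the 4 +/+ libraries, so the silent libraries were the deeper ones, and depth and genotype cannot be told apart. Of the marker lists, 1 of 12 luminal, 3 of 8 basal, 5 of 10 stromal, 0 of 4 endothelial and 1 of 10 blood genes were listed. The summed CPM (the usual count scaled to the library total, with edgeR's TMM factors) of the stromal markers was 0 to 5956 in L/L lines, and 9.34 to 26.9 in +/+ lines. Decorin (Dcn) reached 1368 CPM in KO_2768 and at most 0.887 in every other line, whereas fibronectin (Fn1) was at 0 in KO_4258 and at 1929 CPM or more in the other 3 L/L lines. Csf1r, a macrophage receptor, was at 312 CPM in KO_4258 and at most 17.2 elsewhere. The luminal marker Elf5 was read in every line, but at 17.6 to 143 CPM in L/L lines and 298 and 316 in WT_5257 and WT_8905, and the remaining luminal markers were not analysed here. The 5 genes were near 0 in lines of each of these kinds, and the part of cell makeup in the result was not tested. The summed CPM of the basal markers was 1.27 to 14.2 in L/L lines and 2.90 and 55.6 in +/+ lines, and the listed markers did not move together. Krt17 was at 1.17 to 10.6 in L/L lines and at 0 and 0.0312 in WT_5257 and WT_8905. Acta2 was at 0.0460 to 3.88 in L/L lines and at 0 and 0.0937 in the same +/+ lines. Oxtr made up nearly all of the +/+ sums, at 2.90 and 55.5, and was at 0.0460 to 6.51 in L/L lines. In bulk libraries, fewer cells of a type and less RNA per cell cannot be told apart.

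Gata4 and Lao1 had 0 reads in all 7 L/L libraries. For Gata4, WT_5257 gave 235 and 279 reads and WT_8905 gave 48 and 45. For Lao1, WT_5257 gave 43 and 23 reads and WT_8905 gave 50 and 49. Both genes were thus read in every +/+ library and the groups did not overlap, but Lao1 rested on few reads even where it was present. In CPM, the lines WT_5257 and WT_8905 were at 16.2 and 2.90 for Gata4, and at 2.08 and 3.09 for Lao1. With 3 counts in the shallowest L/L library, 0.164 CPM, as the limit that a count of 0 allows, the mean of the L/L lines was at least 58.2-fold lower than that of the +/+ lines for Gata4 and at least 15.7-fold lower for Lao1. Against the lower of the +/+ lines, the bounds were 17.7-fold and 12.7-fold. These limits and the intervals given for other genes cover counting error only.

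Fam150b, the Alk and Ltk ligand, was nearly as silent. The 7 L/L libraries held 4 reads in all, 2 in a library of KO_1925 and 2 in KO_2768. WT_5257 gave 474 and 627 reads and WT_8905 gave 311 and 283. It was the most evenly read of the 5 genes in the +/+ lines after Lao1, at 34.8 CPM in WT_5257 and 18.5 in WT_8905. The share of reads pooled over +/+ libraries was 948-fold that pooled over L/L libraries, a ratio that rests on 4 reads (95% exact interval 370 to 3483). Without KO_2768 it was 1568-fold (433 to 12960). It was 695-fold without KO_1922, 1413-fold without KO_1925, 659-fold without KO_4258, 660-fold without WT_5257 and 1241-fold without WT_8905.

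Mlana and Plekhd1 kept a few reads. For Mlana, the L/L libraries held 6 and 9 reads in KO_1922, 2 and 0 in KO_1925, 5 in KO_2768 and 1 and 2 in KO_4258. WT_5257 gave 3475 and 4304 reads of Mlana and WT_8905 gave 595 and 576. Mlana was therefore above 0 in 6 of 7 L/L libraries and highest there in KO_1922, which still lay 100-fold below WT_8905 in CPM (0.364 against 36.6). The share of reads pooled over +/+ libraries was 801-fold that pooled over L/L libraries (95% exact interval 542 to 1238). The ratio was 1467-fold without KO_1922, 208-fold without WT_5257 and 1403-fold without WT_8905. It was 649-fold without KO_1925, 828-fold without KO_2768 and 633-fold without KO_4258.

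For Plekhd1, the L/L libraries held 0 and 3 reads in KO_1922, 0 and 1 in KO_1925, 8 in KO_2768 and 0 in both of KO_4258. WT_5257 gave 830 and 1032 reads of Plekhd1 and WT_8905 gave 222 and 174. KO_2768, the line with high Dcn, was the highest of the L/L lines at 0.310 CPM, 39.9-fold below the 12.4 CPM of WT_8905. The pooled ratio was 421-fold (95% exact interval 241 to 816). KO_2768 held 8 of the 12 L/L reads, and without it the ratio was 1045-fold (407 to 3837). It was 147-fold without WT_5257 and 699-fold without WT_8905, and 411-fold, 342-fold and 293-fold without KO_1922, KO_1925 and KO_4258.

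Per gene length, the 5 genes spanned a wide range of levels where they were present. Mean FPKM (reads scaled to gene length and to the library total) in WT_5257 was 382 for Mlana, 22.3 for Fam150b, 16.1 for Plekhd1, 4.64 for Gata4 and 0.884 for Lao1. In WT_8905 the means were 56.9, 11.9, 3.38, 0.827 and 1.28 in the same order of genes. Mlana was among the most abundant listed genes, with lower FPKM in 98.7% of them in WT_5257 and 90.3% in WT_8905, whereas Lao1 exceeded 32.4% and 31.7%. The order of the upper 3 genes was the same in both lines, and Gata4 and Lao1 changed places. Within each line, the 2 libraries of a gene did not overlap those of its neighbors in this order.

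**Figure D1:**
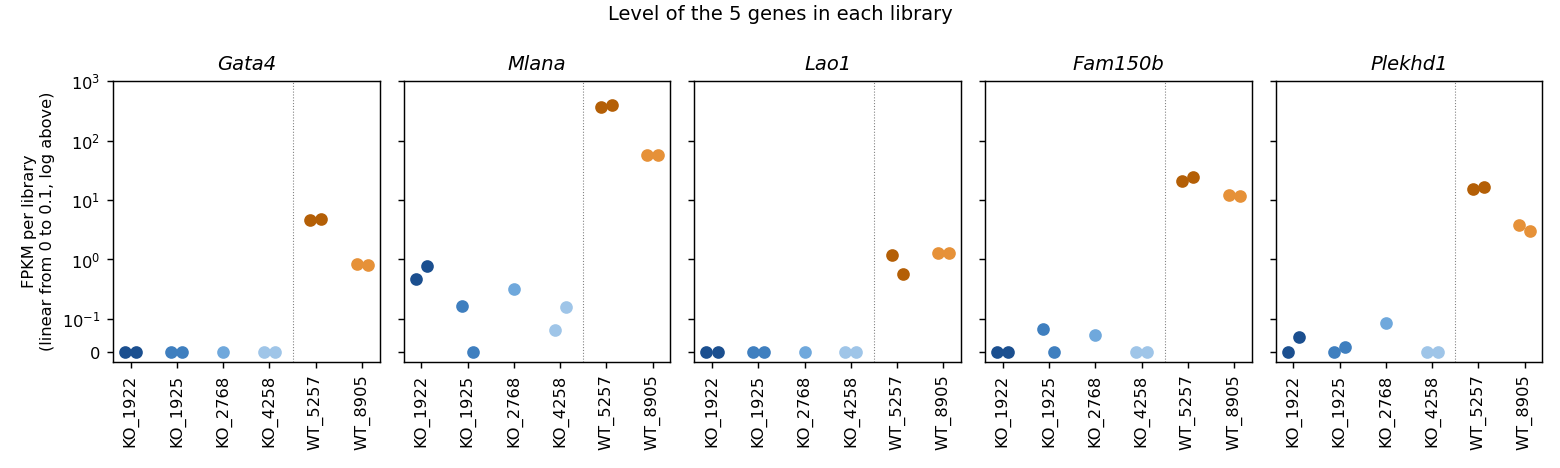
FPKM of each gene (vertical axis, linear from 0 to 0.1 and logarithmic above) in each of the 11 libraries, grouped by cell line on the horizontal axis, with 1 point per library. L/L libraries (blue) sit at 0 for Gata4 and Lao1 and at most at 0.779 for Mlana, and +/+ libraries (brown and orange) sit above them for all 5 genes.

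All 5 genes passed the expression filter, and all 4 L/L lines were below both +/+ lines for each of them, which the choice of the genes fixes. The same ordering held for 38.2% of the 4268 listed genes tested. Silence was rarer. Only 9 of 4461 listed genes (0.202%) had at most 3 reads in every L/L library and at least 1 CPM in both +/+ lines, and Gata4, Lao1 and Fam150b are 3 of them. By the deposited gene types, the 9 include a pseudogene, Fam181b, and an antisense gene, Gm12000. The remaining protein-coding genes among them were Rbp7, a cytoplasmic retinol-binding protein (4.80 and 6.18 CPM in WT_5257 and WT_8905), Cdhr4, a cadherin-related gene (5.34 and 1.34), Dpf3, a subunit of the BAF chromatin remodeling complex (9.98 and 1.22), and Scgb2b27, a secretoglobin (1.11 and 1.59). With up to 10 reads allowed per library, 34 genes met the limits, including all 5. Outside the limit of 3 reads lay Shisa7 and Tmigd1, each with a highest L/L library of 4 reads, and further out Plekhd1 at 8 and Mlana at 9. Plekhd1 and Mlana were not next in this order. Genes outside the 5 lay between, with highest L/L libraries of 5 to 7 reads, and others also reached 9. In the opposite direction, 19 genes (0.426%) had at most 3 reads in every +/+ library and at least 1 CPM in every L/L line.

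The +/+ lines also differed from each other, a contrast that the choice of the genes did not use. Mlana was 6.46-fold higher in WT_5257 than in WT_8905 (log2 difference -2.69, SE 0.07, adjusted p = 1.32e-34, edgeR quasi-likelihood test with Benjamini-Hochberg adjustment over 4377 genes). Gata4 was 5.37-fold higher in WT_5257 (log2 difference -2.43, SE 0.21, adjusted p = 7.55e-14, edgeR). Plekhd1 was 4.57-fold higher (log2 difference -2.19, SE 0.12, adjusted p = 1.64e-21, edgeR). In each of these 3 genes both WT_5257 libraries lay far above both WT_8905 libraries. Fam150b was 1.80-fold higher in WT_5257 (log2 difference -0.85, SE 0.12, adjusted p = 3.21e-08, edgeR).

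Lao1 was the exception. Its log2 difference was 0.61 (SE 0.36, adjusted p = 0.144, edgeR), and the WT_5257 libraries lay apart at 2.92 and 1.36 CPM. Without the library with 43 reads, Lao1 was higher in WT_8905 with a log2 difference of 1.25 (adjusted p = 0.0237, edgeR), and without the library with 23 reads the difference was 0.15 (adjusted p = 0.801, edgeR). Lower values in WT_8905 were called for 24.9% and higher values for 36.2% of the listed genes tested, so that 4 of 5 genes are read against 24.9%. With DESeq2's size factors in place of TMM, 1520 genes were lower and 1239 higher in WT_8905, against 1089 and 1584, the median of all tested genes moved from 0.11 to 0, and 4 of the 5 genes were still lower past the threshold. The median log2 difference of the 5 genes was -2.19 and that of all tested genes 0.11. A log2 difference under -2 was found in 164 tested genes (3.75%) and in 3 of the 5. That share covers all listed genes tested, also those higher in L/L lines. Of the other genes named above for few L/L reads, Dpf3 (-2.99) and Tmigd1 (-2.93) were under -2 too. Cdhr4 (-1.93), Gm12000 (-1.40), Shisa7 (-0.26), Fam181b (-0.16), Rbp7 (0.42) and Scgb2b27 (0.56) were not. Further genes within the limit of 10 reads, to which Mlana and Plekhd1 belong, went both ways. Dock3 (-2.58) and A830018L16Rik (-2.21) were under -2, whereas Tmem82 (3.52), Chst10 (2.60) and E330034G19Rik (2.50) were over 2, as were 14.4% of all tested genes. Libraries of 1 line are labeled as biological replicates, and nothing says that they came from separate cultures, so the p-values measure the spread between libraries and the test compares 2 tumor-derived lines and no genotype.

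**Figure D2:**
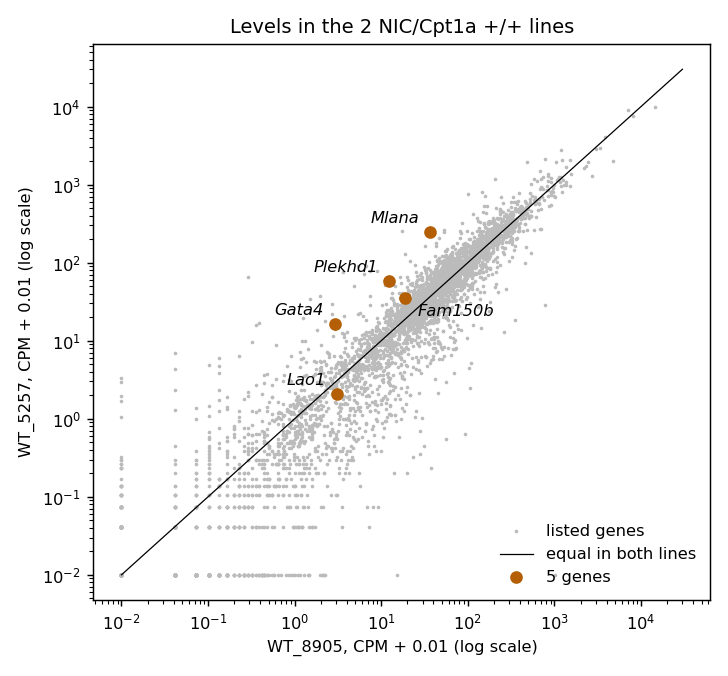
CPM + 0.01 of every listed gene in WT_8905 (horizontal axis) and WT_5257 (vertical axis), both logarithmic, with the 5 genes as large points and the line of equal levels. Mlana, Gata4 and Plekhd1 lie far above the line (6.46-fold, 5.37-fold and 4.57-fold), Fam150b lies closer to it (1.80-fold) and Lao1 lies slightly below it.

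Genes of the pathways around Gata4 were few in the table. Of 18 GATA factors and their partners, 2 were listed and 0 passed the test by line. Zfpm2 encodes Fog2, a cofactor that binds Gata4 and represses or modifies its activity. Its CPM was 50.7, 44.9, 45.4 and 10.9 in KO_1922, KO_1925, KO_2768 and KO_4258, against 1.48 in WT_5257 and 8.93 in WT_8905 (log2 difference 2.86, SE 0.99, adjusted p = 0.0842, edgeR by line). Zfpm2 was thus highest in lines without Gata4 reads, and between the +/+ lines it was lower in WT_5257, where Gata4 was higher (log2 difference WT_8905 minus WT_5257 2.64, adjusted p = 1.63e-15, edgeR). Of the listed genes tested, 35.1% lay above in every L/L line and 36.2% were called higher in WT_8905. The absence of Gata4 in L/L lines is fixed by its choice, and a relation of Zfpm2 to Gata4 was not tested. Gata6, a GATA factor of endoderm and heart, was at 0.0460 to 9.03 CPM in L/L lines and at 0.126 and 0.999 in WT_5257 and WT_8905, so the groups overlapped. Of 16 genes known to be driven by Gata4 in heart, gonad or endoderm, 1 was listed. This was Inhbb, an inhibin and activin subunit, with 73.7 to 145 CPM in L/L lines and 203 and 256 in the +/+ lines (log2 difference -1.05, SE 0.29, adjusted p = 0.0671, edgeR by line).

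Of 20 melanocyte genes, 4 were listed, and they did not move together. Sox10, a neural crest transcription factor that is upstream of melanocyte genes and is also read in mammary epithelium, was at 187, 147, 252 and 220 CPM in the L/L lines and at 653 and 602 in WT_5257 and WT_8905. It was called lower in L/L lines (log2 difference -1.64, SE 0.24, adjusted p = 0.0360, edgeR by line), against a background of 3.47% of listed genes called lower and 1.66% called higher. Sox10 did not follow Mlana between the +/+ lines, with a log2 difference of -0.06 (adjusted p = 0.270, edgeR). Myo5a, a myosin that carries melanosomes, was at 63.8 to 157 CPM in L/L lines and at 62.8 and 33.8 in the +/+ lines. Gpnmb, a melanosome and lysosome glycoprotein, was at 58.7 CPM in KO_2768, 5.91 in KO_4258 and under 1 CPM in the other 4 lines. Rab38, a melanosome trafficking GTPase, was at 0 in KO_4258 and at 5.23 to 7.91 in the other L/L lines, against 0.852 and 0.625. The enzymes of pigment synthesis and Mitf were not analysed here.

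The receptors Alk and Ltk were not analysed here, and 2 of 13 genes of their signaling were listed, with 0 called. Shc1, an adaptor of receptor tyrosine kinases, was at 107 to 138 CPM in L/L lines, 526 in WT_5257 and 167 in WT_8905 (log2 difference -1.49, SE 0.42, adjusted p = 0.0682, edgeR by line). Shc1 was also higher in WT_5257 than in WT_8905, as Fam150b was (log2 difference WT_8905 minus WT_5257 -1.59, adjusted p = 9.83e-32, edgeR). Grb2, the adaptor that Shc1 recruits, lay between 114 and 135 CPM in L/L lines and at 113 and 114 in the +/+ lines.

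Around Lao1, 3 of 14 amine and amino acid oxidases were listed, and the test by line called 0. Maoa, a monoamine oxidase, was at 42.1, 63.3 and 48.2 CPM in KO_1922, KO_1925 and KO_2768, and at 1.06 in KO_4258, next to 2.08 in WT_5257 and 0.406 in WT_8905. Ddo, the D-aspartate oxidase, had the same pattern, at 1.44 to 4.15 CPM in the first 3 lines and at 0.0230 in KO_4258, against 0.0631 and 0.281. Both were therefore higher in 3 L/L lines than in the +/+ lines and near the +/+ level in KO_4258, unlike Lao1, which was at 0 reads in all 4. Maob, another monoamine oxidase, was at 6.74 CPM in KO_2768, at 0 to 0.461 in the other L/L lines and at 0 in both +/+ lines.

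Milk genes held more listed members. Of 20, 11 were listed and 10 tested, and the test by line called 0. All 4 L/L lines lay below both +/+ lines for 7 of the 11 and above them for 1, against 38.2% and 35.1% of the listed genes tested. Kappa-casein (Csn3) was at 319, 19.9, 200 and 0.851 CPM in KO_1922, KO_1925, KO_2768 and KO_4258, and at 8903 in WT_5257 and 7035 in WT_8905 (log2 difference -5.89, SE 1.84, adjusted p = 0.0751, edgeR by line). Lactoperoxidase (Lpo), a milk enzyme that uses hydrogen peroxide, the product of Lao1, was at 0 to 3.10 CPM in L/L lines and at 39.7 and 18.1 in the +/+ lines (log2 difference -4.86, SE 1.74, adjusted p = 0.0870, edgeR by line). Among the lactation transcription factors, Stat5a was at 21.3 to 42.3 CPM against 101 and 84.3 (log2 difference -1.60, SE 0.32, adjusted p = 0.0505, edgeR by line), and Elf5 was at 17.6 to 143 CPM against 298 and 316 (log2 difference -2.20, adjusted p = 0.0796, edgeR by line). The prolactin receptor Prlr was at 92.7 to 116 CPM against 172 and 138, and Stat5b at 58.1 to 92.8 against 118 in both. Other members had positive differences that did not pass either. Plin2, a lipid droplet coat protein, was at 415 to 930 CPM against 315 and 360, Xdh, a milk fat globule enzyme, at 126 to 557 against 65.8 and 140, and Btn1a1, a milk fat globule membrane protein, at 10.3 to 50.2 against 1.48 and 12.7. KO_4258 was the lowest L/L line for Csn3, Lpo and Elf5, and it was not so for Stat5a and Stat5b.

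**Figure D3:**
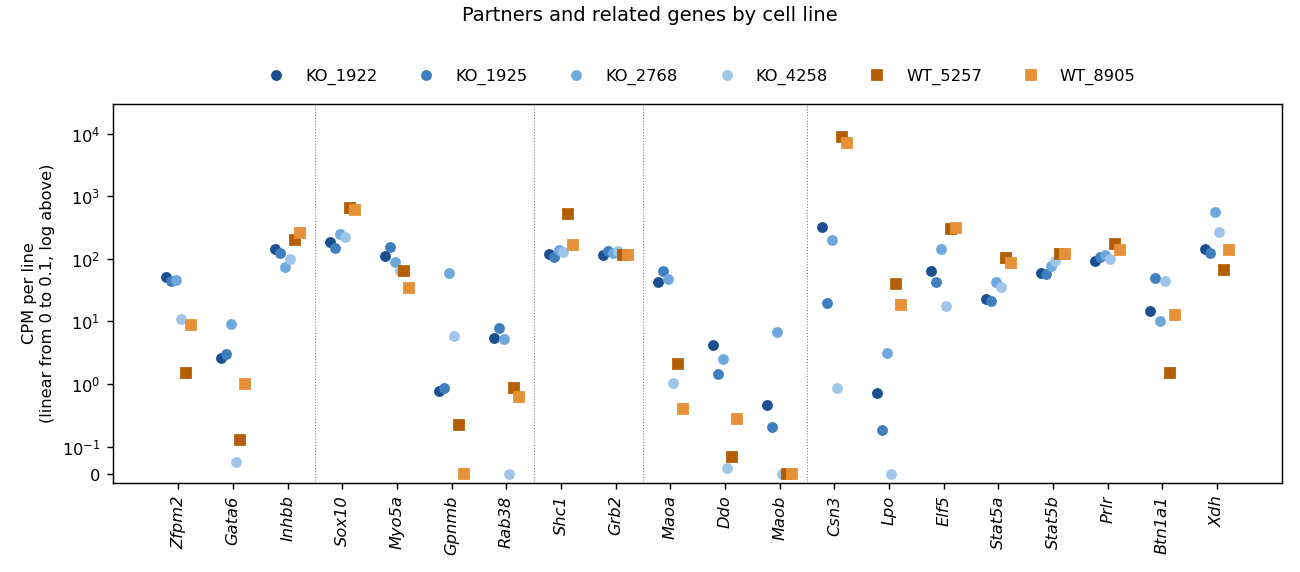
CPM per cell line (vertical axis, linear from 0 to 0.1 and logarithmic above) of listed genes related to Gata4, Mlana, Fam150b and Lao1, with dotted lines between the lists, circles for L/L lines and squares for +/+ lines. Zfpm2 is higher in every L/L line than in both +/+ lines but was not called by line. Sox10, Csn3 and Lpo are higher in both +/+ lines, and Maoa and Ddo are higher in 3 of 4 L/L lines than in the +/+ lines.

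Among genes with a Plekh symbol, 11 besides Plekhd1 were listed, of which 7 lay above and 2 below in all L/L lines, against 35.1% and 38.2% of the listed genes tested. The test by line called 1 higher and 1 lower, against 1.66% and 3.47%. Plekhn1 was called higher, at 17.7 to 22.7 CPM in L/L lines and 8.27 and 7.12 in the +/+ lines (log2 difference 1.42, SE 0.28, adjusted p = 0.0493, edgeR by line). The 1 called lower was Plekhd1os, the antisense neighbor of Plekhd1. The median log2 difference of the 11 was 0.88, beside 0.49 over all tested genes. Every call by line in these lists or near the 5 genes comes from 4 lines against 2. None was left in fits without KO_1922, KO_1925 or WT_5257, or with adjustment over 20000 genes, a number meant to stand for genes outside the table, where the lowest adjusted p of any listed gene in edgeR was 0.0955.

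Of the listed genes next to Plekhd1, 2 were also near 0 reads in the L/L lines and 1 was not. Plekhd1os lies on the minus strand at 80686370 to 80692466 of chromosome 12, so it starts 0.125 kb before the Plekhd1 start. The genes run away from each other, and the start of Plekhd1os falls inside the Plekhd1 promoter window shown above. It had 1 read in all L/L libraries together, and 96 in the +/+ libraries, with 2.68 CPM in WT_5257 and 0.344 in WT_8905 (log2 difference L/L minus +/+ -7.23, SE 1.40, adjusted p = 0.0479, edgeR by line). On the other side, Ccdc177, a coiled-coil gene, starts 29.8 kb beyond Plekhd1. It had 4 reads in the L/L libraries and 65 in the others, with 1.89 CPM in WT_5257 and 0.156 in WT_8905. Both were under 1 CPM in WT_8905 and so fall outside the limits used above for silent genes. Both were lower in WT_8905 than in WT_5257, as Plekhd1 was, with log2 differences of -2.88 for Plekhd1os (adjusted p = 3.66e-06, edgeR) and -3.49 for Ccdc177 (adjusted p = 9.37e-06, edgeR). Whether the counting used the strand of reads is not given in the sources used here. Reads within one gene that come from a transcript of the opposite strand therefore cannot be told apart. Slc39a9, a zinc transporter 9.25 kb upstream of Plekhd1 and nearer than Ccdc177, was well read, at 54.3 to 62.8 CPM in L/L lines and 179 and 92.2 in WT_5257 and WT_8905.

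Within 1 Mb of Plekhd1, 9 genes were listed, and all 9 lay below both +/+ lines in every L/L line. Of the 9, 8 were called higher in WT_5257 than in WT_8905, and the exception was Adam4 (log2 difference -0.50, adjusted p = 0.366, edgeR). The chromosome as a whole leaned the same way. Of listed genes tested on chromosome 12, 76.2% lay below in every L/L line, against 38.2% of all listed genes, and 181 of 243 (74.5%) were called higher in WT_5257, against 24.9% of all. The median log2 difference WT_8905 minus WT_5257 was -0.62 on chromosome 12, beside -2.19 for Plekhd1 and -0.85 for Fam150b on the same chromosome. Dpf3, named above for few L/L reads, also lies on chromosome 12. The part of chromosome 12 as a whole in the values of these genes was not tested. Near Fam150b, 4 genes were listed and 3 lay below, and within 5 Mb 8 of 12 did. Tmem18, a nuclear membrane protein gene, was at 23.4 to 34.8 CPM in L/L lines, 106 in WT_5257 and 43.8 in WT_8905.

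Near Mlana, 7 genes were listed, 4 below and 1 above in every L/L line, against 38.2% and 35.1% of the listed genes tested, and within 5 Mb 6 of 21 were below and 6 above. The closest, Ermp1, a metallopeptidase of the endoplasmic reticulum 49.5 kb away, was at 60.4 to 77.6 CPM in L/L lines, 330 in WT_5257 and 137 in WT_8905 (log2 difference L/L minus +/+ -1.79, SE 0.34, adjusted p = 0.0479, edgeR by line). Ermp1 was higher in WT_5257 than in WT_8905, as Mlana was (log2 difference WT_8905 minus WT_5257 -1.22, adjusted p = 4.87e-25, edgeR). The neighbors of Mlana were split, with 3 of 7 called higher in WT_5257 and 4 called higher in WT_8905, against 24.9% and 36.2% of the listed genes tested. Within 5 Mb, 6 and 11 of 21 were so called. Near Lao1, 8 genes were listed, 1 below and 4 above, and within 5 Mb 11 of 58 were below and 29 above. The 4 above within 1 Mb included the glucose transporter Slc2a1 at 98.8 to 178 CPM in L/L lines and 63.9 and 96.7 in WT_5257 and WT_8905. Near Gata4, only the squalene synthase gene Fdft1 was listed, 21.1 kb away, at 54.9 to 92.8 CPM in L/L lines and 85.2 and 147 in WT_5257 and WT_8905, and the groups overlapped. Of all 29 neighbors, 2 had at most 3 reads in every L/L library, both next to Plekhd1. The share of all listed genes with so few L/L reads, whatever their level in +/+ lines, was not counted. Listed genes elsewhere were also at 0 CPM in all L/L lines and under 1 CPM in WT_8905, so a local excess was not tested.

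**Figure D4:**
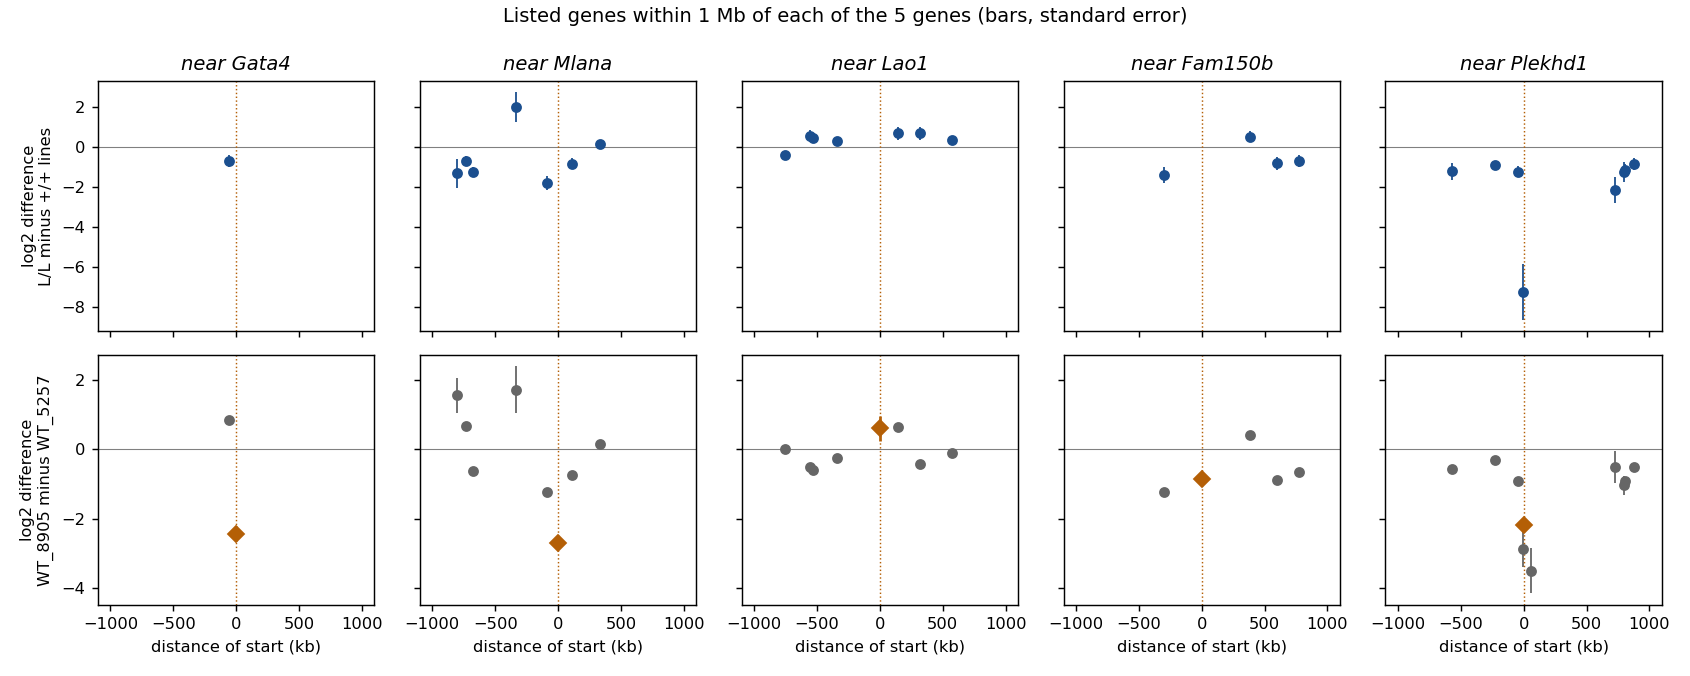
Listed genes within 1 Mb of each of the 5 genes, by distance of their start from that of the gene (horizontal axis, kb), with log2 differences between genotypes by line (upper row) and between the +/+ lines (lower row) on the vertical axes and bars of 1 standard error. Diamonds mark the 5 genes, which are left out of the upper row, and points near Plekhd1 lie below 0 in both rows, with Plekhd1os at -7.23 above and -2.88 below.

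The listed genes most like each of the 5 were found by Pearson's r of log2 CPM over the 11 libraries, given as a description, since the libraries share lines and the 7 L/L libraries are at the bottom of every profile. The choice depends on the measure: with Spearman's rho, 0 of the 3 genes remained for each of Gata4, Lao1 and Fam150b, 1 for Plekhd1 and 2 for Mlana. For Gata4 they were Cpd, a carboxypeptidase of the secretory pathway (r = 0.998, with 194 to 215 CPM in L/L lines, 1005 in WT_5257 and 543 in WT_8905), the lincRNA B230208H11Rik (r = 0.996) and Fam115a (r = 0.996). For Mlana they were the reductase gene Dhrs4 (r = 0.996, 15.6 to 22.0 CPM against 91.8 and 51.5), Ap3d1 (r = 0.994, 171 to 182 CPM against 267 and 235), a subunit of the AP-3 adaptor of lysosome-related organelles, and Zfp628 (r = 0.993). For Plekhd1 they were Plagl1, an imprinted zinc finger gene (r = 0.994, 0.207 to 0.891 CPM against 18.3 and 6.68), the Notch inhibitor Numb (r = 0.993, 36.0 to 80.5 against 477 and 292) and the lipase Abhd2 (r = 0.992). Numb lies on chromosome 12, as Plekhd1 does, where most listed genes leaned the same way. All 9 of these genes were higher in WT_5257 than in WT_8905 in CPM, an order that the choice by r over the same libraries favors.

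For Fam150b the most similar genes were Kcnn4, a calcium-activated potassium channel (r = 0.993, 137 to 157 CPM in L/L lines against 1281 and 849), Dgkg, a diacylglycerol kinase (r = 0.992, 1 read in all L/L libraries against 57), and the lincRNA Gm11766 (r = 0.992). For Lao1 the most similar was Scd1, the stearoyl-CoA desaturase that makes monounsaturated fatty acids (r = 0.993). Scd1 was at 549, 669, 667 and 508 CPM in KO_1922, KO_1925, KO_2768 and KO_4258, and at 9889 in WT_5257 and 14350 in WT_8905. Next were Camkk2, a kinase upstream of AMPK (r = 0.992, 84.7 to 87.9 CPM against 226 and 242), and Dennd2d (r = 0.989). Unlike Lao1, Scd1 and Camkk2 were well read in the L/L lines too.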

How the data were processed

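RNA-Seq libraries of 6 mouse mammary tumor cell lines were analyzed (11 libraries, 1 table). Reads were aligned with STAR to mm10 and counted with HTSeq, and the submitters' processing notes also name Trimmomatic, edgeR and limma. The authors deposited read counts per gene as whole numbers without normalization. The authors also deposited FPKM per gene, and a normalized signal in which the count is divided by 1 size factor per library, which was not used for the results. Gene lengths came from the same deposited table. Columns of the authors' own comparison (its p-values, raw and adjusted, and its fold changes) were not used, and the table lists genes past the threshold of that comparison.

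The 5 genes, the gene lists and the tests were chosen with earlier results of these data known. Library totals were recovered from counts, gene lengths and FPKM, because listed genes carry 33.3% to 34.6% of each library's reads. The analysis used R 4.3.3, with edgeR 4.0.16 for counts (filterByExpr, TMM, quasi-likelihood F-test, Benjamini-Hochberg adjustment over the listed genes tested, threshold 0.05), with limma 3.58.1 loaded and DESeq2 1.42.0 as an alternative. For genotypes, libraries were summed by line, 4 lines against 2 (4268 genes), and for the control lines WT_8905 and WT_5257 all 11 libraries were fitted with 1 group per line (4377 genes). The functions were tested on simulated data. Named genes were the 5 genes, their 3 nearest genes by Pearson's r of log2 CPM (prior count 2), listed genes within 1 Mb, up to 6 listed members per list with the lowest p by line, and protein-coding genes with at most 3 reads in each L/L library. Shisa7, Tmigd1, Dock3, A830018L16Rik, Tmem82, Chst10, E330034G19Rik, Plin2, Xdh, Btn1a1 and the cell type markers were named besides, after their values were seen. Promoters and motifs were read from RefSeq (GRCm38.p6), and numbers of annotated genes from GENCODE vM21. Figures were made with matplotlib 3.10.9 under Python 3.11.15. Alternatives covered scaling, filter, tool, sample unit, replicate block, number of tests, each line or library left out, limits of silence, distance and the measure of likeness.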

Additional observations from a re-analysis of the deposited data

Results flagged for a closer look

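Over the 4 NIC/Cpt1a L/L lines, 91 genes were searched for a line far from the other 3 by Dixon's criterion, which chance meets in about 1 of 20 groups, and 11 genes met it. None of the 5 genes that the report is about was among them. KO_2768 was the line apart for Dcn (1368 CPM), Plin2 (930.3 CPM), Gpnmb (58.71 CPM), Pdgfrb (13.37 CPM) and Maob (6.743 CPM). KO_4258 was apart for Csf1r (312.5 CPM), Ppapdc2 near Mlana (27.94 CPM) and Zfpm2, the Gata4 cofactor (10.88 CPM, the lowest of the 4). The remaining 3 rest on 1 read in 1 library, for Lalba and Dgkg in KO_2768 (0.03876 CPM each) and Plekhd1os in KO_1922 (0.02428 CPM).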

How the results depend on the processing

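The levels of the 5 genes in the control lines moved by more than the spread between duplicate libraries under 16 of 40 alternatives, and 54 of 55 alternatives for their differences between the control lines stayed on the same side of the threshold. The exception was Lao1 without a library of WT_5257, given in the report. Among the levels that moved were those of single WT_8905 libraries. Their TMM factors were found by library (0.937 and 0.929) and that of the line by line (0.969), so the count of 16 mixes 2 scalings. The log2 difference WT_8905 minus WT_5257 ranged from -2.88 to -2.62 for Mlana, from -2.62 to -2.39 for Gata4, from -2.38 to -2.08 for Plekhd1 and from -1.04 to -0.73 for Fam150b. Counts of listed genes between genotypes by line depended strongly on the choices, and the cause was not tested. The edgeR fit gave 71 raised and 148 lowered genes. DESeq2 gave 974 raised and 1446 lowered, DESeq2 size factors 301 lowered (with the median log2 difference of all genes at 0.37 in place of 0.49), no filter on low counts 252 lowered, and library totals without TMM, added after the data were seen, 93 lowered. Adjustment over 20000 genes gave 0 raised and 0 lowered in edgeR, with 2154 genes at an unadjusted p under 0.05, while DESeq2 with adjustment over its own tests gave the counts above. With every library as a sample, 1873 were raised and 1680 lowered, and with the replicate block 1706 and 1680. The library numbers did not pair the samples, since correlations of the differences between libraries ran from -0.0479 to 0.0336 over 10 pairs of lines, and the block gave 1561 higher and 1072 lower genes in WT_8905. Leaving out 1 line gave 0 to 294 raised and 0 to 347 lowered genes, with 0 without KO_1922, KO_1925 or WT_5257 (1486, 1446 and 1013 at an unadjusted p under 0.05) and the highest counts without KO_4258. Leaving out 1 library gave 1396 to 1465 genes higher and 946 to 1033 lower in WT_8905. Silent genes numbered 34 in NIC/Cpt1a L/L and 47 in NIC/Cpt1a +/+ with up to 10 reads allowed, and 1 and 1 with at least 5 CPM required, in place of 9 and 19. The share of neighbors below in every L/L line moved for 3 of the 5 genes within 5 Mb. Ratios of pooled reads without each line, given in the report, were added after the data were seen. Depth limits Lao1 most, with at most 50 reads per library.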
